A study of Mus musculus with 86 samples.

Results

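Cadherins are the calcium-dependent adhesion proteins that hold neighbouring cells together, and the cadherins that a cell makes differ between epithelia and mesenchyme. Cdh1 (E-cadherin) is the cadherin of epithelial adherens junctions, whereas Cdh2 (N-cadherin) and Cdh11 are typical of mesenchymal cells. Snai2 (Slug) is a zinc-finger repressor that binds E-box sequences, known for repressing Cdh1, and Vim (vimentin) forms the intermediate filaments of mesenchymal cells. In the embryonic kidney the ureteric bud is an epithelium from the start, while the nephron forms when Six2-expressing cap mesenchyme condenses, switches on Wnt4 and Lhx1 and turns into an epithelium. Cdh4 (R-cadherin) and Cdh6 (K-cadherin) are known from the early nephron.

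Described here are 7 genes, Cdh1, Cdh2, Cdh4, Cdh6, Cdh11, Snai2 and Vim, chosen by name as the cadherins and mesenchymal genes that bear on this change from mesenchyme to epithelium. They are 7 of the 12360 genes that the authors listed for 86 single cells. The cells came from wild-type mouse metanephros (the embryonic kidney) of mixed background at 12.5 dpc (days post coitum), Theiler stage 20, and kidneys of male and female embryos were pooled before dissociation. All 86 cells are therefore 1 sample, no difference was tested, and means are given with the SD over cells. The values are RPKM, read numbers divided by the length of the gene and the depth of the cell, and the number of reads behind them is unknown. Detection means an RPKM of 1 or more. Shares of cells carry 95% intervals (Clopper-Pearson, exact), and these hold counting error alone. Where no cell detected a gene, the share that 3 cells would give is stated as a limit beside the upper end of the interval.

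The labels give no cell type, so the cells were put in 4 classes by other genes. Bud cells were the 7 cells with a Mal2 RPKM of at least 100. Of the other cells, 46 detected Six2, 10 of them with Wnt4 or Lhx1 and 36 without, and 33 remained. The bud limit parted the cells widely, with 1219 as the lowest Mal2 RPKM inside and 3.41 as the highest outside. The other limits were narrow. The lowest Six2 RPKM inside was 1.50 and the highest outside 0.527, and the lowest Wnt4 and Lhx1 RPKM inside were 1.17 and 1.16. The genes that set the classes are not results.

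Markers of the cell types set the classes in context. Bud cells detected a median of 13 of 14 listed ureteric bud markers against 3 in each other class. Among them Gata3, Krt8 and Calb1 were detected in 7 of 7 bud cells, Ret and Epcam in 6 and Wnt11 in 4. Ret was detected in no other class, but some of the others were. Krt8 reached 129 RPKM in a Six2 cell without Wnt4 or Lhx1, against at most 107 in bud cells. Wnt11 reached 31.7 RPKM in a remaining cell, against at most 25.6 in bud cells. Gata3 was detected in 4 and Epcam in 6 of the 36 Six2 cells without Wnt4 or Lhx1. Bud cells were not free of other markers, since 3 detected Six2 and 5 detected Wnt4 or Lhx1. Nephron progenitor markers had a median of 10 of 13 per cell in both Six2 classes, against 7 in bud cells and 4 in remaining cells. Stroma markers ran from a median of 4 of 15 in bud cells through 6.5 in Six2 cells with Wnt4 or Lhx1 and 9 in Six2 cells without them to 11 in remaining cells. The remaining cells were of more than 1 kind. The 25 of them with Foxd1, a stroma gene, detected a median of 12 stroma markers, and the 8 without Foxd1 detected 5.5. Of 12 induced nephron markers the same 25 cells detected a median of 2 and the same 8 cells 5.5. Bud cells and Six2 cells with Wnt4 or Lhx1 had a median of 7 each on that list, and Six2 cells without them 3. Wnt4 and Lhx1 are themselves on it. Foxd1 is itself on the stroma list and Six2 on the nephron progenitor list. Each therefore adds 1 marker to the cells chosen by it and none to those chosen by its absence. Genes detected per cell had medians of 6488 in bud cells, 6751 and 6106 in Six2 cells with and without Wnt4 or Lhx1, and 6087 in remaining cells. A set of 5 cells detected fewer than 4602.5 genes, a limit of 3 median absolute deviations below the median of all cells. Of these, 4 were remaining cells and 1 a Six2 cell without Wnt4 or Lhx1. The highest of them had 4377 genes and the lowest cell above the limit 4633, so no wide gap parted them.

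Promoter sequences from RefSeq (build GRCm38.p6) were matched by symbol for 2 of the 7 genes, Cdh6 and Vim, and are shown because Snai2 is a repressor that reads E-boxes and because Vim varied with Snai2 over these cells. Each run is the 250 bases before the start of the gene, written 5′ to 3′ on the strand of the gene, with E-boxes (CANNTG) in capitals.
Cdh6, chr15:13173676-13173925, minus strand: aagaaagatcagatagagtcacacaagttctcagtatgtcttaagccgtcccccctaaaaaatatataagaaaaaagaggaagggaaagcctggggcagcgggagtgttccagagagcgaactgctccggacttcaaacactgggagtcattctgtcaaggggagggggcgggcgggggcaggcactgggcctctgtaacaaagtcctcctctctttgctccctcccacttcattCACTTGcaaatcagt
Vim, chr2:13574061-13574310, plus strand: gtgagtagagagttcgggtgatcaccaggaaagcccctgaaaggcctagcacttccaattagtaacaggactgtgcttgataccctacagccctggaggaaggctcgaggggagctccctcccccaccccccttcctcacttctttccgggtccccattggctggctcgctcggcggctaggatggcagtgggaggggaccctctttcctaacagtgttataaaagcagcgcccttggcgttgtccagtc
Both strands were searched for CACCTG, the E-box of the Snail family, and for the general form CANNTG, which includes it. The Cdh6 window held 1 general E-box, which starts 15 bases before the gene, and no CACCTG. The Vim window held neither. Of 27025 promoter windows of the same length, 17.1% held CACCTG and 66.0% held CANNTG, so most windows lack CACCTG.

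Cdh1 was a gene of the bud cells. On mouse build mm9 the authors place it on chromosome 8 (109127268 to 109194146, gene 12550). The 7 bud cells had 2.10, 3.81, 7.62, 10.1, 28.8, 36.2 and 63.6 RPKM, a mean of 21.7 ± 22.5 (SD). All 7 detected it (interval 59.0 to 100%), and the values spread over a wide range within the class. None of the 10 Six2 cells with Wnt4 or Lhx1 detected it, which allows a share of up to 30.0% by the limit of 3 (exact interval 0 to 30.8%), and their highest value was 0.0952. None of the 36 Six2 cells without Wnt4 or Lhx1 did so, which allows up to 8.33% by that limit (0 to 9.74%), and their highest value was 0.131. The bud cells thus did not overlap with either Six2 class. The log2 ratio of (mean RPKM + 1), used for every ratio below, was 4.49 against each Six2 class, with means of 0.0128 and 0.0127 in the Six2 cells. The size of a ratio against such low means is set by the added 1.

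Outside the bud class 1 cell detected Cdh1. That cell, numbered 5 in the labels, had 19.1 RPKM of Cdh1 and fell among the remaining cells because its Six2 stood at 0.281. It held 76.4 RPKM of Wnt4, 45.3 of Lhx1 and 373 of Pax8, a gene of the induced nephron, and its Mal2 was listed at 0. In the same cell Cdh6 stood at 33.6 RPKM, Cdh4 at 24.4 and Cdh2 at 22.3. Cdh11 was low there at 1.29 RPKM, Vim stood at 0.323 and Snai2 was listed at 0. With any value above 0 of Six2, Wnt4 and Lhx1 taken as detection, this cell and 2 others join the Six2 cells with Wnt4 or Lhx1. The Six2 cells without either grow from 36 to 39. The Cdh1 ratio of the class with Wnt4 or Lhx1 over the class without then becomes 1.29.

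**Figure D1:**
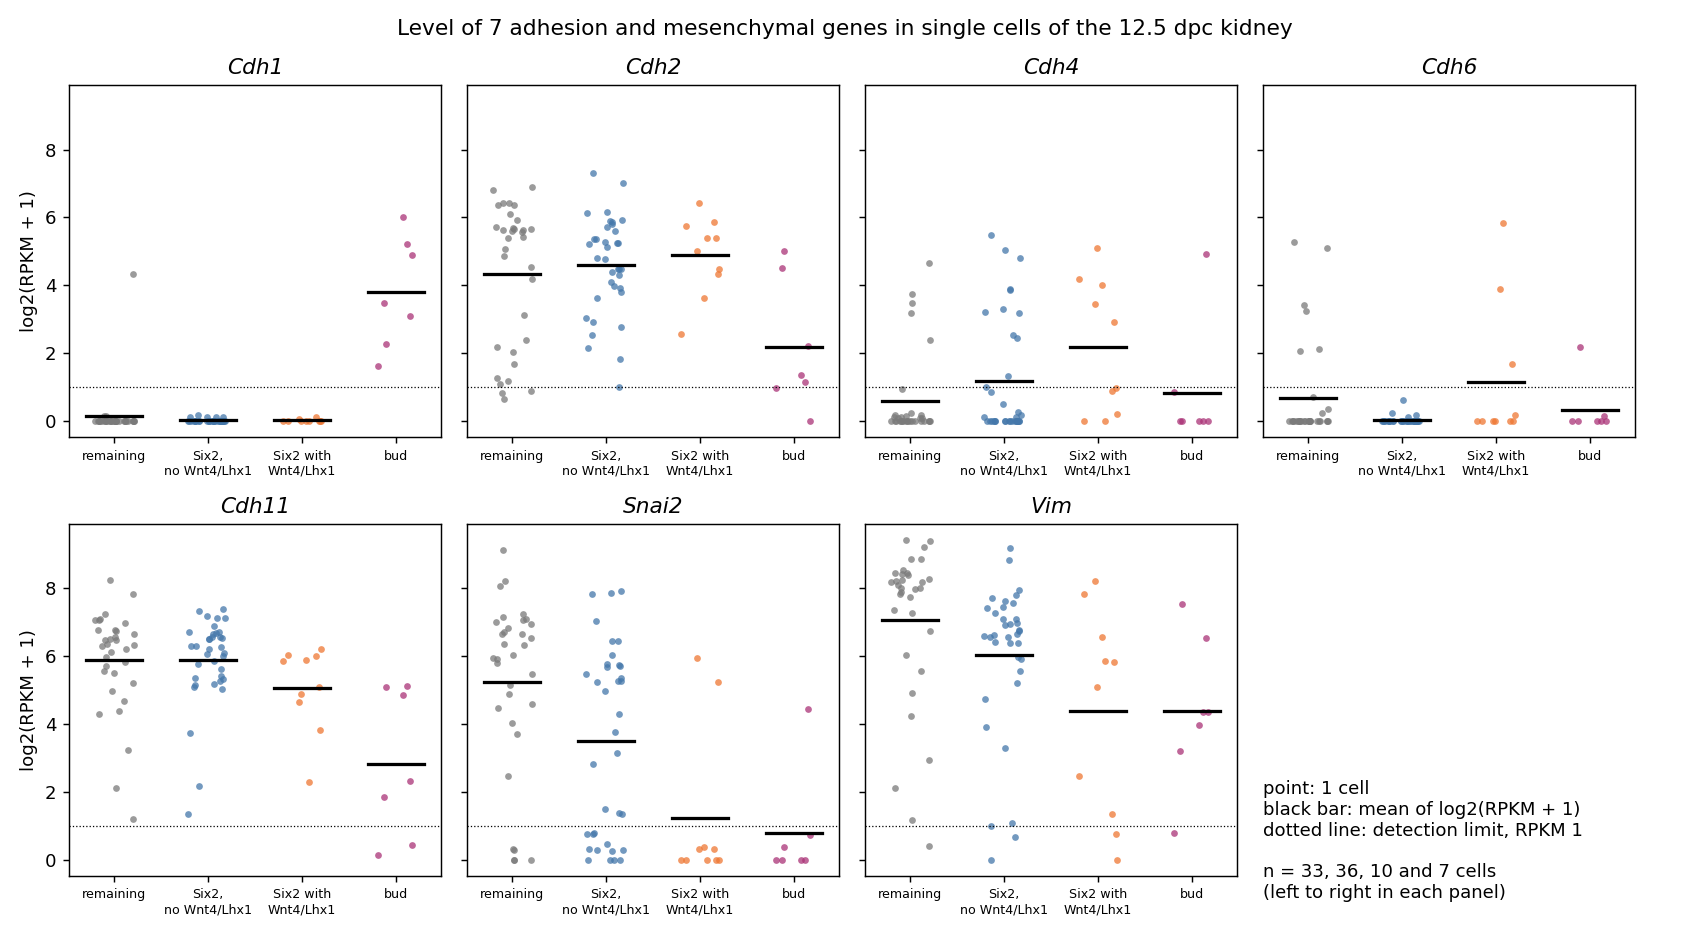
Level of each of the 7 genes in every cell, as log2(RPKM + 1) on the vertical axis, with 1 point per cell and the cells grouped in the 4 classes (33 remaining, 36 Six2 without Wnt4 or Lhx1, 10 Six2 with either, 7 bud). Black bars are class means of log2(RPKM + 1) and the dotted line is the detection limit of 1 RPKM. Cdh1 is above the line in all 7 bud cells and in 1 remaining cell, Cdh6 in no Six2 cell without Wnt4 or Lhx1, and Cdh11 in all cells but 2 bud cells.

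Cdh3 (P-cadherin) and Cdh16 (Ksp-cadherin), other cadherins of epithelia, were like Cdh1 detected mainly in the bud cells. Cdh3 was detected in 7 of 7 bud cells, with a mean of 18.8 ± 12.3 RPKM (SD), and in 3 of the 79 other cells. The highest of these 3 was cell 72, a Six2 cell without Wnt4 or Lhx1. It had 25.1 RPKM, within the bud range of 1.54 to 35.7, so Cdh3 unlike Cdh1 overlapped with that class. Cdh16 was detected in 6 of 7 bud cells, with a mean of 23.3 ± 16.6 RPKM, and in none of the others. Neither was detected in cell 5.

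Cdh11 was the most widely detected cadherin, found in 84 of 86 cells. It lies on chromosome 8 (105156895 to 105309011, mm9, gene 12552). The remaining cells had 1.29 to 302 RPKM with a median of 79.8 and a mean of 84.2 ± 62.8 (SD, 33 cells). The Six2 cells without Wnt4 or Lhx1 had 1.53 to 167 RPKM with a median of 75.0 and a mean of 75.3 ± 42.5. These classes overlap almost wholly. The Six2 cells with Wnt4 or Lhx1 had 3.90 to 72.8 RPKM with a median of 45.2, all below the median of the Six2 cells without them, and a mean of 41.8 ± 24.1. Bud cells had 0.101, 0.353, 2.58, 3.96, 28.1, 32.9 and 34.0 RPKM, a mean of 14.6 ± 16.2. The means of remaining cells and of both Six2 classes were less than 1 SD of the Six2 cells without Wnt4 or Lhx1 apart, and that of bud cells stood further below. The log2 ratio against the Six2 cells without Wnt4 or Lhx1 was -0.83 for the Six2 cells with either gene and -2.29 for bud cells.

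Cdh2 had means in the 3 classes outside the bud that lay far closer together than the SD over their cells. It lies on chromosome 18 (16747386 to 16967558, mm9, gene 12558). Its mean was 39.2 ± 34.0 RPKM in remaining cells (SD), 35.4 ± 33.3 in Six2 cells without Wnt4 or Lhx1 and 36.5 ± 24.2 in Six2 cells with either. The spans over cells were 0.584 to 118, 1.00 to 159 and 4.89 to 84.4 RPKM, with medians of 41.6, 26.7 and 36.2. It was detected in 30 of 33, 36 of 36 and 10 of 10 cells. Bud cells had a mean of 8.67 ± 12.6 RPKM and detected it in 5 of 7, 2 of them well above the rest with 21.8 and 31.4 RPKM. The log2 ratio of bud cells was -1.91 against Six2 cells without Wnt4 or Lhx1 and -1.96 against those with either. Between the Six2 classes it was 0.05.

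**Figure D2:**
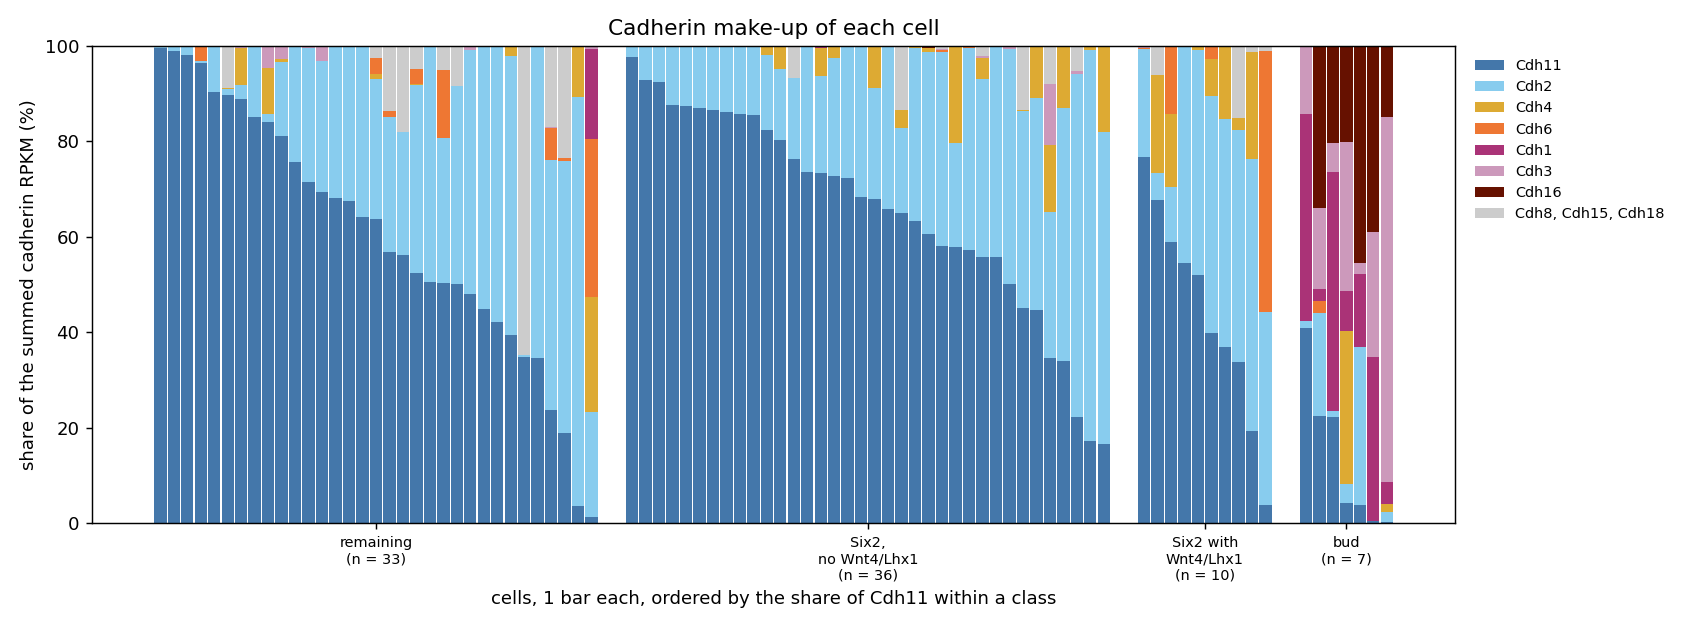
Share of each cadherin in the summed RPKM of the 10 cadherins in the table (vertical axis, percent), with 1 bar per cell and cells ordered by the share of Cdh11 within each class. Cdh11 and Cdh2 fill most bars outside the bud class, with Cdh11 highest in 32 of 36 Six2 cells without Wnt4 or Lhx1 and in no bud cell.

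The make-up of a cell's cadherins puts these levels in relative terms. This measure, chosen after the values had been seen, sums the RPKM of the 10 cadherins named Cdh in the table and gives each its share. Cdh11 took a median of 68.1% in Six2 cells without Wnt4 or Lhx1 and was the highest cadherin in 32 of 36. In remaining cells its median share was 63.8% and it was highest in 23 of 33. In Six2 cells with Wnt4 or Lhx1 its median share was 45.9%, beside 46.3% for Cdh2. There Cdh11 was highest in 5 of 10 cells, Cdh2 in 4 and Cdh6 in 1. The median share of Cdh2 was 25.6% in the Six2 cells without Wnt4 or Lhx1, where it was highest in 4 cells. The shares of a cell add up to a fixed whole, so a lower Cdh11 by itself raises the share of Cdh2. In RPKM the Cdh2 means of the Six2 cells with and without Wnt4 or Lhx1 were close, at 36.5 and 35.4. In bud cells Cdh11 had a median share of 4.32% and Cdh2 of 2.09%, and Cdh16 was highest in 3 cells, Cdh1 in 2 and Cdh3 and Cdh4 in 1 each. Summed cadherin RPKM had medians of 83.6 in bud cells, 96.3 and 117 in Six2 cells with and without Wnt4 or Lhx1, and 127 in remaining cells. The number of cadherins detected per cell had medians of 5, 3.5, 2 and 2 in that order.

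Cdh4 was patchy in every class. It lies on chromosome 2 (179177183 to 179634080, mm9, gene 12561). It was detected in 5 of 10 Six2 cells with Wnt4 or Lhx1 (interval 18.7 to 81.3%), in 11 of 36 without (16.3 to 48.1%), in 5 of 33 remaining cells (5.11 to 31.9%) and in 1 of 7 bud cells (0.361 to 57.9%). These intervals overlap. Means were 8.41 ± 10.9, 4.68 ± 10.0, 1.85 ± 5.06 and 4.29 ± 11.0 RPKM (SD). The 5 Six2 cells with Wnt4 or Lhx1 that had it stood at 6.58, 10.0, 15.0, 17.3 and 33.3 RPKM. The bud value came from cell 57 alone, with 29.2 RPKM, which also held 50.4 RPKM of Six2, 7.68 of Wnt4 and 32.8 of Pax8. Whether that bud cell carried RNA of a second cell was not tested. Without the highest cell of each class the log2 ratio of bud cells over Six2 cells without Wnt4 or Lhx1 goes from -0.10 to -2.01.

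Outside the bud class Cdh4 was also looked at by Pax8, a split chosen after the values had been seen. Of the 25 such cells with Pax8, 12 detected Cdh4 (48.0%, 27.8 to 68.7%), and of the 54 without Pax8, 9 did (16.7%, 7.92 to 29.3%), so that the intervals overlap at their ends. Means were 7.24 ± 11.4 and 2.45 ± 6.55 RPKM (SD). Within the Six2 cells without Wnt4 or Lhx1, 5 of 10 with Pax8 and 6 of 26 without it had Cdh4. The Six2 cells with Wnt4 or Lhx1 went the other way. Of these 10 cells 7 detected Pax8, and among those only cells 43 and 56 had Cdh4, at 6.58 and 17.3 RPKM. Cells 39, 44 and 54 did not detect Pax8, and all of them had Cdh4, at 33.3, 10.0 and 15.0 RPKM. Among the remaining cells Cdh4 was found in 1 of 25 with Foxd1 and in 4 of 8 without. Those 4 were cell 5 and cells 29, 32 and 80, which held 171 to 344 RPKM of Pax8 and 8.06 to 12.3 of Cdh4. Over the 33 remaining cells the Pearson r of log2(RPKM + 1) between Cdh4 and Pax8 was 0.89, and over the 36 Six2 cells without Wnt4 or Lhx1 it was 0.25. All these cells share 1 pool, and the first value rests on few cells.

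Cdh6 was rare. It lies on chromosome 15 (12963955 to 13103394, mm9, gene 12563). No Six2 cell without Wnt4 or Lhx1 detected it, which allows a share of up to 8.33% by the limit of 3 (0 to 9.74%), and the highest value there was 0.542 RPKM. Of the 10 Six2 cells with Wnt4 or Lhx1, 3 detected it (6.67 to 65.2%), with 2.21, 13.9 and 56.0 RPKM, and the class mean was 7.23 ± 17.7 (SD). The log2 ratio between these classes was 3.00, and it came to 1.47 without the highest cell of each class. That highest cell, numbered 69, is in the class by a Wnt4 RPKM of 1.17. With the class limits set at 3 RPKM it and cell 39, in which Cdh6 was listed at 0, move to the Six2 cells without Wnt4 or Lhx1. Cell 42, with a Six2 RPKM of 1.50 and Cdh6 listed at 0, leaves that class for the remaining cells. The ratio then becomes 0.26. Among remaining cells 6 of 33 detected Cdh6, 5 of them with Foxd1. The highest were 38.1 RPKM in cell 73, which holds 13.7 of Foxd1 and 12 of Lhx1, and 33.6 in cell 5. Both are among the 4 remaining cells that hold Wnt4 or Lhx1. In bud cells it was detected once, at 3.55 RPKM.

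**Figure D3:**
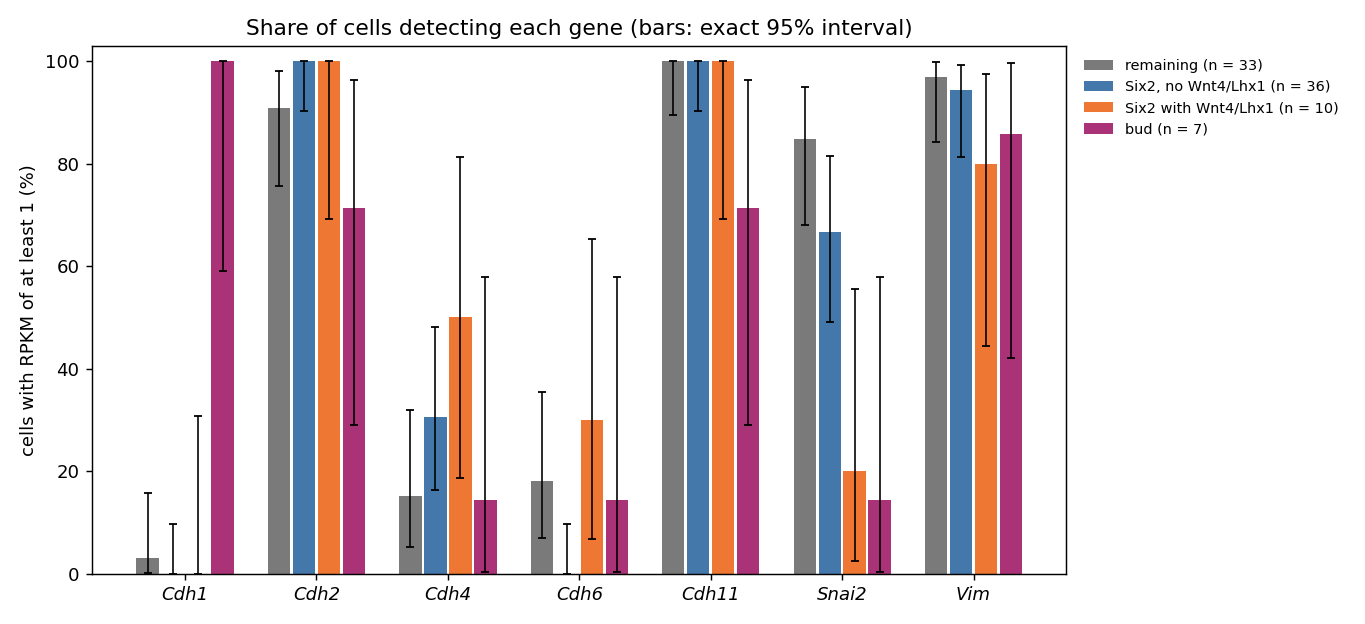
Share of cells with an RPKM of at least 1 (vertical axis, percent) for each of the 7 genes in the 4 classes, with exact 95% intervals that cover counting error only. The intervals of Cdh1 in bud cells do not reach those of the other classes, those of Cdh4 overlap in all classes, and Snai2 runs from 28 of 33 remaining cells to 1 of 7 bud cells.

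Snai2 had its highest mean in remaining cells and was not detected in 8 of the 10 Six2 cells with Wnt4 or Lhx1. It lies on chromosome 16 (14705952 to 14709475, mm9, gene 20583). Remaining cells ran from 0 to 557 RPKM with a median of 64.2 and a mean of 91.5 ± 110 (SD), and 28 of 33 detected it (68.1 to 94.9%). Six2 cells without Wnt4 or Lhx1 ran from 0 to 240 RPKM with a median of 15.6 and a mean of 43.2 ± 66.1, and 24 of 36 detected it (49.0 to 81.4%). Of the Six2 cells with Wnt4 or Lhx1, 2 of 10 detected it (2.52 to 55.6%), at 36.9 and 60.2 RPKM, and the other 8 lay at 0.311 or below. The intervals of the 2 Six2 classes overlap at their ends. Only bud cell 57 detected it among the bud cells, with 20.6 RPKM. The log2 ratio against the Six2 cells without Wnt4 or Lhx1 was 1.07 for remaining cells, -2.03 for Six2 cells with either gene and -3.44 for bud cells.

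Vim showed the same order of means with more overlap. It lies on chromosome 2 (13495938 to 13504453, mm9, gene 22352). Remaining cells ran from 0.323 to 690 RPKM with a median of 259 and a mean of 256 ± 186 (SD). Six2 cells without Wnt4 or Lhx1 ran from 0 to 585 RPKM with a median of 99.4 and a mean of 123 ± 119. The Six2 cells with Wnt4 or Lhx1 ran from 0 to 295 RPKM with a median of 44.1 and a mean of 77.0 ± 103.3, and bud cells from 0.740 to 184 RPKM with a median of 19.4 and a mean of 48.4 ± 67.0. Vim was detected in 32 of 33, 34 of 36, 8 of 10 and 6 of 7 cells in that order at the limit of 1 RPKM. At 10 RPKM or more it was found in 29 of 33, 31 of 36, 6 of 10 and 5 of 7. The log2 ratio against the Six2 cells without Wnt4 or Lhx1 was 1.04 for remaining cells, -0.67 for Six2 cells with either gene and -1.33 for bud cells. The second of these depends on how cells are averaged, since it was -1.63 as a difference of mean log2 values and -1.05 without the highest cell of each class.

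Snai2 and Vim stood highest in the remaining cells that detected Foxd1. Of these 25 cells 24 detected Snai2, with a mean of 108 ± 119 RPKM (SD), and all 25 detected Vim, with a mean of 299 ± 176. In the 8 remaining cells without Foxd1 the means were 39.4 ± 50.0 RPKM for Snai2, with 4 cells detecting it, and 118 ± 151 for Vim. Among Six2 cells without Wnt4 or Lhx1, 16 of 24 with Foxd1 and 8 of 12 without it detected Snai2, with means of 38.2 ± 53.3 and 53.1 ± 88.2 RPKM. The share of cells with Snai2 was thus equal with and without Foxd1 in those Six2 cells, and for Vim the means there were 137 ± 112 and 96.2 ± 132 RPKM. The stroma list gave summed RPKM of 4.10 to 576 in bud cells, 129 to 1262 and 88.1 to 926 in Six2 cells with and without Wnt4 or Lhx1, and 76.4 to 1873 in remaining cells, with all 15 markers detected in some remaining cell. Its part in the levels of Snai2 and Vim was not tested.

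Snai2 and Vim varied together between cells, and Cdh4 varied against both in the remaining cells. The Pearson r of log2(RPKM + 1) for Snai2 and Vim was 0.53 over 86 cells, 0.46 within the 36 Six2 cells without Wnt4 or Lhx1 and 0.49 within the 33 remaining cells. For Cdh4 it was -0.38 with Snai2 and -0.32 with Vim over all cells, and -0.72 and -0.71 within the remaining cells. The last pair rests on the few cells with Cdh4. Within the Six2 cells without Wnt4 or Lhx1 the values were weaker, at -0.32 and -0.25, and 7 of the 11 cells with Cdh4 detected Snai2 against 24 of all 36. Of the 21 cells outside the bud with Cdh4, 9 detected Snai2 (42.9%, 21.8 to 66.0%), against 45 of the 58 without Cdh4 (77.6%, 64.7 to 87.5%). Means of Snai2 in these sets were 11.2 ± 23.2 and 76.5 ± 96.8 RPKM (SD), and those of Vim 94.6 ± 134 and 201 ± 166. By Pax8 the split went the same way for Snai2, with 11 of 25 cells with Pax8 and 43 of 54 without, and means of 23.9 ± 37.7 and 75.4 ± 100 RPKM. Within the Six2 cells without Wnt4 or Lhx1, 6 of 10 with Pax8 and 18 of 26 without it detected Snai2, at an r of -0.08, so the pooled splits also hold the difference between classes. These splits were chosen after the values had been seen. The cells share 1 pool, so these values describe them only.

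**Figure D4:**
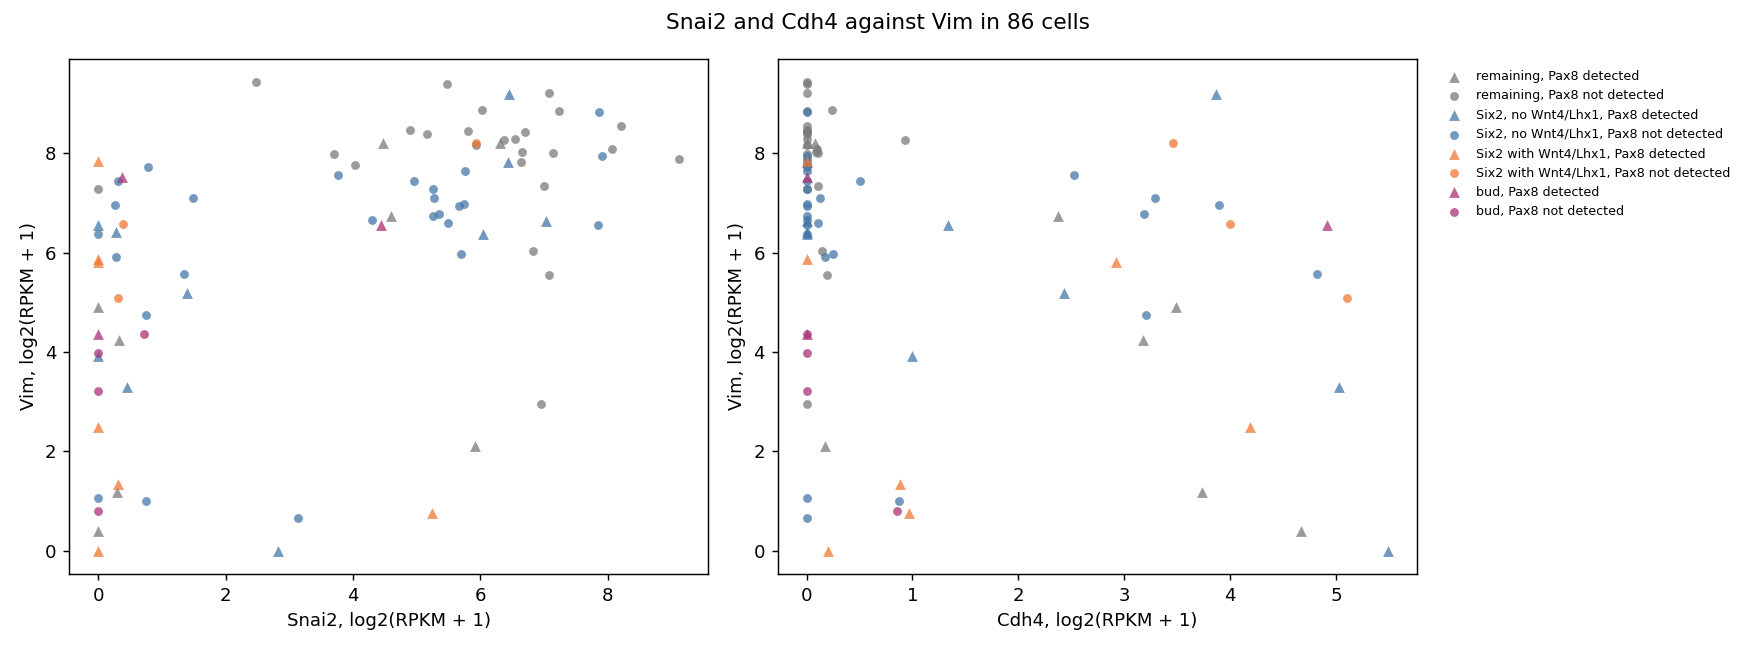
Vim (vertical axes) against Snai2 (left) and Cdh4 (right), all as log2(RPKM + 1), in 86 cells coloured by class, with triangles for cells that detect Pax8 and circles for those that do not. Snai2 and Vim vary together (r of 0.53 over all cells), and the 5 remaining cells with Cdh4 lie at 106 RPKM of Vim or below.

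Several cadherins were often detected in the same cell. All 81 cells with Cdh2 also detected Cdh11, which is 96.4% of the Cdh11 cells. All 22 cells with Cdh4 and all 10 with Cdh6 detected both Cdh2 and Cdh11, while Cdh4 and Cdh6 shared 3 cells, 13.6% of the cells with Cdh4 and 30.0% of those with Cdh6. Of the 8 cells with Cdh1, 6 also detected Cdh2, 6 detected Cdh11 and 6 detected Vim, but 1 detected Snai2. That 1 was bud cell 57. Over 86 cells Cdh1 had an r of -0.35 with Cdh2 and -0.48 with Cdh11. Bud cells 18, 47 and 57, which detect Six2, are 3 of the 6 cells with Cdh1 and Cdh2 and 3 of the 6 with Cdh1 and Cdh11, and whether they carried RNA of a second cell was not tested. Cells 18 and 47 hold 28.1 and 34.0 RPKM of Cdh11. The 3 bud cells that detect Six2 had a mean Cdh1 of 35.8 ± 28.0 RPKM (SD). Without them the log2 ratio of Cdh1 in bud cells over Six2 cells without Wnt4 or Lhx1 was 3.59, an alternative added after the values had been seen.

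The counts of these genes past a 2-fold ratio were read against all genes whose mean RPKM reached 1 in either class. A gene near 0 in 1 class passes this filter only through the other, which favours a ratio past 2-fold toward that other class. This was so for Cdh1 in both comparisons of bud cells and for Cdh6 wherever it passed. In remaining cells over Six2 cells without Wnt4 or Lhx1, for example, the Cdh6 means were 2.95 and 0.0262 RPKM. The same limit holds for the gene lists below. In bud cells over Six2 cells without Wnt4 or Lhx1, Cdh1 was at least 2-fold higher and Cdh2, Cdh11, Snai2 and Vim were at least 2-fold lower, of 6 genes that passed this filter, where 12.1% of all genes were higher and 22.7% lower. The median log2 ratio was -1.62 over the 6 genes and -0.14 over all genes. In bud cells over Six2 cells with Wnt4 or Lhx1, 1 of 7 was higher, Cdh1, and 4 were lower, Cdh2, Cdh6, Cdh11 and Snai2, against 16.8% and 20.9% of all genes. Of these 4, Cdh6 came within the limit at -0.83 and Snai2 at -0.43 as differences of mean log2 values, and Cdh6 at -0.99 with class limits of 3 RPKM. In Six2 cells with over without Wnt4 or Lhx1, Cdh6 was higher and Snai2 lower of 6, against 8.21% and 15.6% of all genes, which is near the background. In remaining cells over Six2 cells without Wnt4 or Lhx1, Cdh6, Snai2 and Vim were higher and none was lower of 6, against 8.95% and 8.29% of all genes. Cdh6 came within the limit at 0.65 as a difference of mean log2 values and at 0.61 with class limits of 3 RPKM. Without the remaining cells that hold Wnt4 or Lhx1 it was at 0.88. Vim came within the limit at 0.83 with any value above 0 as detection. In this same comparison Cdh4 lay just within the limit on the lower side, and past it under 7 of the 10 alternatives tried. Of the 4 comparisons, 3 have the Six2 cells without Wnt4 or Lhx1 as their reference, so their counts are not independent of each other.

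Transcription factors known for driving the change from epithelium to mesenchyme were lower in bud cells than in Six2 cells without Wnt4 or Lhx1. This list leaves out Snai2, and 9 of its genes passed the same filter. Of these, 7 were at least 2-fold lower and none higher, against 22.7% and 12.1% of all genes. The median log2 ratio was -2.18 over the 9 and -0.14 over all genes. Snai1, the close relative of Snai2, was detected in no bud cell and in 12 of 36 of those Six2 cells, with a log2 ratio of -4.12. Foxc1, a forkhead factor of mesenchyme, had -2.81. The E-box factors Tcf4 and Tcf3 lay within 2-fold, with -0.69 and -0.63. In Six2 cells with over without Wnt4 or Lhx1, 3 of 9 were lower and none higher, against 15.6% and 8.21% of all genes. Prrx1, a homeobox gene of mesenchyme, had -1.88 and Snai1 -1.54, while Twist1 had 0.77 and Foxc2 0.49. In remaining over Six2 cells without Wnt4 or Lhx1 no gene of the 9 passed 2-fold, and the 2 highest were Zeb1 at 0.52 and Prrx1 at 0.30. Snai2 at 1.07 thus stood above the other factors in that comparison. Over the cells outside the bud, Snai1 and Snai2 had an r of 0.43.

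Regulators of epithelial identity ran the other way in bud cells. Of 7 such genes among those the authors listed, 5 passed the filter. All 5 were at least 2-fold higher than in Six2 cells without Wnt4 or Lhx1, against 12.1% of all genes. A gene near 0 in those Six2 cells passes the filter only through the bud cells, which favours higher ratios. Elf3, an epithelial ETS factor, had a log2 ratio of 5.16 and was detected in 3 of 7 bud cells, and Esrp1, an epithelial splicing factor, had 4.39 and was detected in 6. Pax2, a paired-box gene of the bud and the nephron lineage, had 1.39. In Six2 cells with over without Wnt4 or Lhx1, 3 of 4 were higher, against 8.21% of all genes, but each of the 3 was detected in 1 of the 10 cells.

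Of 9 intermediate filament and linker genes other than Vim, 3 were higher and 2 lower in bud cells than in Six2 cells without Wnt4 or Lhx1, where 12.1% and 22.7% of all genes were. Krt18, a keratin of simple epithelia, had a mean of 201 ± 161 RPKM (SD) in bud cells and a log2 ratio of 6.87. Des (desmin) had -2.06 and Nes (nestin) -1.74. In remaining cells 1 of 8 was higher, the nuclear lamin gene Lmna at 1.65, and 3 were lower, Nes among them at -1.44, against 8.95% and 8.29% of all genes.

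Partners of the cadherins were mixed in direction. Of 14 catenin and linker genes that passed the filter, 4 were higher and 2 lower in bud cells over Six2 cells without Wnt4 or Lhx1. Of all genes 12.1% were higher and 22.7% lower. The median log2 ratio of the 14 was 0.14. The highest were 2 genes of the p120 catenin family, Ctnnd2 at 3.46 and Arvcf at 2.20. In Six2 cells with over without Wnt4 or Lhx1 none of 14 was higher and 3 were lower, among them the nectin Pvrl3 at -1.92, against 8.21% and 15.6% of all genes, which is near the background. Of 14 desmosome and polarity genes 7 were higher and 1 lower in bud cells over Six2 cells without Wnt4 or Lhx1, where 12.1% and 22.7% of all genes were. In Six2 cells with over without Wnt4 or Lhx1 only 9 genes of this list passed the filter. A gene near 0 in the Six2 cells passes it only through the bud cells, which favours higher ratios, so these counts are description only. Epcam, an epithelial adhesion protein, had 4.92, and Crb3, an apical polarity protein, had a mean of 34.2 ± 45.5 RPKM in bud cells and was listed at 0 in those Six2 cells. Llgl1, a basolateral polarity protein, had -1.86.

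Adhesion and matrix genes of mesenchyme had none higher and 6 of 13 lower in bud cells over Six2 cells without Wnt4 or Lhx1, against 12.1% and 22.7% of all genes. The integrin Itga8, known for its role in bud outgrowth from the side of the mesenchyme, had -3.32, and the matrix proteoglycan Vcan had -2.31. In remaining cells 4 of 14 were higher and 1 was lower than in Six2 cells without Wnt4 or Lhx1, against 8.95% and 8.29% of all genes. Acta2 (smooth muscle actin) had 3.41 from 6 of 33 cells, Fn1 (fibronectin) had 1.26 with all 33 cells detecting it, and Itga8 was the lower one at -1.15. Of the protocadherins and atypical cadherins, 1 of 13 was higher and 3 were lower in Six2 cells with over without Wnt4 or Lhx1, against 8.21% and 15.6% of all genes, which is near the background. Pcdh19 had 1.50 and Pcdh18 -2.40, the latter detected in 3 of 10 against 25 of 36 cells.

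Among genes detected in at least 10 cells, the 3 whose log2(RPKM + 1) followed each gene most closely over 86 cells were named. For Cdh1 they were Emx2, a homeobox gene of the bud and early tubule, at an r of 0.91, then Mal2 and Calb1 at 0.84. Emx2 was detected in all 8 cells with Cdh1, cell 5 included, and in 10 cells in all. Mal2 set the bud class. For Cdh11 the closest was the nuclear receptor gene Nr2f2 at 0.64, followed by Dse at 0.47 and Cdkn1c at 0.44. For Snai2 they were Maged2 at 0.65, Emp3 at 0.64 and Nfia at 0.61. For Vim they were the actin-binding Tmsb4x at 0.74, the galectin Lgals1 at 0.68 and Nfia at 0.67. Nfia, one of the stroma markers, is the only gene named for 2 of them. Cdh2, Cdh4 and Cdh6 had no close follower. Their highest values were 0.45 with F2r, 0.47 with Ptprm and 0.46 with Rrnad1. The number of genes detected per cell had an r between -0.08 and 0.21 with each of the 7.

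A second table of the authors compares cells they call six2only with cells they call six2andcited1, and none of the 7 genes is among its 450. Of the related genes, the authors' deposited table gives a fold of 5.79 for Snai1, 3.31 for Foxc2 and 2.16 for Itgb1. The authors' deposited table gives -4.46 for Foxc1 and -6.10 for Lmnb2, a nuclear lamin gene, negative values being its way of writing a lower level.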

How the data were processed

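RNA of 86 single cells of 1 pool was measured with the Fluidigm C1, SMARTer cDNA and an Illumina HiSeq2500, per the labels' protocols. The values were deposited as RPKM. The table lists 12360 genes, all of which pass 3 RPKM in 3 or more cells. The submitters' processing notes name TopHat 1.4.1, DESeq and the mm9 build and give them no role. In a second deposited table the authors' signed fold, a score, covers 450 genes, and its 35 columns of single cells were not used. The 7 genes, the classes and the gene lists were chosen with earlier results of these data known. Ratios are log2 of (mean RPKM + 1) between classes. They understate the change of low genes. With 1 pool no test was made. All 7 genes are named, with the 2 highest and 2 lowest ratios of each list among genes whose mean RPKM reached 1 in either class, the genes that set the classes, and the 3 genes most like each of the 7. Some of these are left to the counts. No doublet caller was run. Python 3.11.15, numpy 2.4.6, pandas 2.3.3, scipy 1.17.1 and matplotlib 3.10.9 were used, and the ratios were tested on simulated data. Alternatives were other limits, pseudocounts, averages, rescaled sums and cells left out.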

Additional observations from a re-analysis of the deposited data

Results flagged for a closer look

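Values that stand far from the rest of their class were looked for in the classes of 7 and 10 cells, in 14 checks, of which chance alone marks about 1 in 20 where values are normally distributed, which values with many at 0 are not. Bud cell 57 stood apart for Cdh4, at 29.2 RPKM, and for Snai2, at 20.6 RPKM. It also held Six2, Wnt4 and Pax8. Bud cell 20 stood apart for Cdh6, at 3.55 RPKM. For Cdh1 in Six2 cells with Wnt4 or Lhx1, cell 79 stood apart at 0.0952 RPKM, which is under the detection limit.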

How the results depend on the processing

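The 28 ratios of the 7 genes were recomputed under 10 alternatives. Of these 280 values 255 moved by less than the spread over cells and 25 moved more, and 28 crossed the 2-fold limit. The sign changed in 10 values, but in none of the ratios past that limit. Values are given over Six2 cells without Wnt4 or Lhx1 unless another class is named. With a pseudocount of 0.1 they were 7.60 for Cdh1 and 2.31 for Cdh6 in bud cells, 5.86 for Cdh6 in Six2 cells with either gene, 2.60 for Cdh1 and 4.60 for Cdh6 in remaining cells, and 7.60 for Cdh1 in bud cells over Six2 cells with either gene. As differences of mean log2 values they were 3.78 for Cdh1 in bud cells, 1.13 for Cdh6 in Six2 cells with either gene, and 0.12 for Cdh1 and 0.65 for Cdh6 in remaining cells. Class limits of 3 RPKM move cells 39 and 69 to the Six2 cells without either gene and cell 42 from there to the remaining cells. With them Cdh6 was at -0.74 in bud cells, 0.26 in Six2 cells with either gene and 0.61 in remaining cells. Any value above 0 as detection moves cell 5 and 2 others to the Six2 cells with either gene, and cells 31, 36 and 60 to those without. The classes then hold 27 remaining cells, 13 Six2 cells with either gene and 39 without. There Cdh1 was at 1.29 in Six2 cells with either gene, -0.0053 in remaining cells and 3.20 in bud cells over Six2 cells with either gene. Without the 4 remaining cells that hold Wnt4 or Lhx1, Cdh1 was at -0.0075 and Cdh6 at 0.88. Without the highest cell of each class, bud cells had -2.01 for Cdh4 and 0.012 for Cdh6, Six2 cells with either gene had 1.47 for Cdh6, and remaining cells had -0.0036 for Cdh1. Without the bud cells that detect Six2, an alternative added after the values had been seen, Cdh1 was at 3.59, Cdh4 at -2.24, and Cdh4 over Six2 cells with either gene at -2.97. With detection at 10 RPKM in place of 1, 7 of the 28 shares of cells moved by more than their interval. Over all genes, a filter at a mean RPKM of 10, which tests fewer genes, took the counts of higher and lower genes from 1373 and 2582 to 753 and 866 in bud cells, from 928 and 1763 to 390 and 482 in Six2 cells with either gene, from 1031 and 955 to 388 and 311 in remaining cells, and from 1853 and 2299 to 905 and 947 in bud cells over Six2 cells with either gene. As mean log2 values the lower genes were 879, 309, 496 and 1402 in that order, and the higher genes of remaining cells 245. For the mean of log2 values the cause was not tested. Read numbers are unknown, so a gene not detected may have been missed.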
